A study of Mus musculus with 10 samples.

Results

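The genes described here carry transforming growth factor beta (TGF-beta) and bone morphogenetic protein (BMP) signals. They are 42 genes fixed by name, of 57180 in the RNA table: 11 ligands, 10 receptors, 6 receptor-activated or common Smads, 4 cell-bound inhibitors (Smad6, Smad7, Smurf1 and the membrane protein Bambi), 4 secreted antagonists, 3 latent TGF-beta binding proteins and 4 Id targets. They were measured in mouse neural stem and progenitor cells (NSPCs) taken from the brain, either wild type (WT) or lacking Mina53 (Mina53-KO, here KO), a protein encoded by Riox2. By its title, the series asks how Mina53, through demethylation of an arginine on histone H4, affects gene expression in these cells. RNA-seq of poly(A) RNA had 3 WT and 3 KO libraries, and CUT&Tag, which tags DNA beside a protein bound by an antibody, had 2 WT and 2 KO libraries. The cells of both genotypes were untreated. The antibody, brain region, mouse age, strain and type of KO allele are not stated in the sources used, and nothing there says that libraries of a genotype came from separate animals, so the p-values measure the spread between these libraries, which may be technical.

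Ligands of this family are secreted dimers that bring together type I and type II serine/threonine kinase receptors, and the type I receptor then phosphorylates receptor-activated Smads, which enter the nucleus with the common Smad, Smad4. TGF-beta and activin receptors act mainly through Smad2 and Smad3, and BMP receptors through Smad1, Smad5 and Smad9. In neural stem cells BMP signals are known for favouring astrocyte fate or quiescence over neurogenesis, in part through Id proteins, which bind basic helix-loop-helix factors and keep them off DNA. TGF-beta itself is secreted in a latent complex that latent TGF-beta binding proteins anchor in the extracellular matrix.

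Riox2, the gene targeted in the KO, had 20, 17.2 and 18.5 CPM (counts relative to the scaled library total) in the 3 WT libraries and 3.26, 3.78 and 3.7 CPM in the 3 KO libraries, a log2 fold change (KO over WT) of -2.37 ± 0.15 (SE; edgeR quasi-likelihood test, adjusted p = 0.000324). RNA libraries held 19922983 to 25939348 rounded counts, and CUT&Tag libraries 2913959 to 4038765 reads in the deposited regions. The RNA libraries fell into 2 classes that cross the genotypes: the mitochondrial share of counts was 2.31% to 2.68% in WT 1, KO 1 and KO 2 and 3.52% to 5.71% in WT 2, WT 3 and KO 3. Of 15298 genes tested, 41.8% did not overlap between these classes, against 19.0% that did not overlap between the genotypes. Values within a class are therefore given for Ltbp1 and for those of the 42 genes called with the class as a covariate. The 11 neural stem and radial glia markers summed to 6961 to 7270 CPM in WT and 7489 to 8445 CPM in KO, which fits the cell type label. They did not move together: Vim was called higher (1822 to 2241 CPM in WT, 2738 to 3632 CPM in KO) and Slc1a3 lower (2232 to 2389 CPM in WT, 1585 to 1782 CPM in KO). Prom1 had at most 2.58 CPM. The 9 oligodendrocyte lineage markers, mostly Olig1 and Olig2, summed to 2268 to 3661 CPM in WT and 2224 to 3470 CPM in KO. Markers of microglia summed to at most 1.87 CPM and those of erythroid cells to at most 0.506 CPM, with Cx3cr1, Itgam, Hbb-bs, Hbb-bt and Hba-a2 at 0.

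The promoters of 4 genes are shown first: Ltbp1, whose RNA was the only one of the 42 to differ between the genotypes by the test used below, and Id2, Id3 and Id4, which had a CUT&Tag region within 1 kb of their start. RefSeq windows (GRCm38.p6, a build other than that of the CUT&Tag regions, and matched by gene symbol only) were found for 31 of the 42 genes. Each sequence holds the 250 bases before an annotated start, on the strand of the gene. Capitals mark CAGAC (or its complement GTCTG), the core of the Smad binding element, and GGCGCC, a GC-rich sequence known from BMP-responsive promoters, which reads the same on both strands.

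Ltbp1, upstream start, chr17:75005279-75005528, plus strand: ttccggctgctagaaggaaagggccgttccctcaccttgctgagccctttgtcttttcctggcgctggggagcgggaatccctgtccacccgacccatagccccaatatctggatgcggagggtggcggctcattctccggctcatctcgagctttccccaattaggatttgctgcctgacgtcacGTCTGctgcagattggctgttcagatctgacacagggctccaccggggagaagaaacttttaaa
Ltbp1, downstream start, chr17:75178531-75178780, plus strand: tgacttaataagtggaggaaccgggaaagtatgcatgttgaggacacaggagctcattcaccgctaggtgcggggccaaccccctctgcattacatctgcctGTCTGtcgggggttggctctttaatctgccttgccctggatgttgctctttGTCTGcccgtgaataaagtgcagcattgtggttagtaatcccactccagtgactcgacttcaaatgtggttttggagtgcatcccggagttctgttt
Id2, chr12:25096093-25096342, minus strand: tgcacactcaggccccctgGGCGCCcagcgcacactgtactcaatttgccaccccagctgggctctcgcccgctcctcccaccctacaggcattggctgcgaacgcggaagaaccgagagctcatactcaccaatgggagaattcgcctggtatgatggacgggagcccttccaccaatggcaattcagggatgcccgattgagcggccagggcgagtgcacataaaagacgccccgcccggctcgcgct
Id3, chr4:136143572-136143821, plus strand: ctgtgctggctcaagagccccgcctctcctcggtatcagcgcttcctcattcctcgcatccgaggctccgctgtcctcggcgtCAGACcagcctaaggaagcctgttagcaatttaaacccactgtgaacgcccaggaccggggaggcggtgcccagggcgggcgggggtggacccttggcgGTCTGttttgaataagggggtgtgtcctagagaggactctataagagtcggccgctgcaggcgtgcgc
Id4, chr13:48260866-48261115, plus strand: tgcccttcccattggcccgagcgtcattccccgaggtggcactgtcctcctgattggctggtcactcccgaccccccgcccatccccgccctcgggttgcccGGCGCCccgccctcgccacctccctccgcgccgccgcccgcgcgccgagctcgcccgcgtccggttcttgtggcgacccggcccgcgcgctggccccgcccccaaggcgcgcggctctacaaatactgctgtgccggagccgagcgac

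Both Ltbp1 starts shown are on the plus strand of chromosome 17, and the 2 windows held 1 and 2 matches to CAGAC and none to GGCGCC. The Id3 window had 2 matches to CAGAC, while Id2 and Id4 had 1 GGCGCC each. Over the 39 windows of the 31 genes, GGCGCC was present in 11 (28.2%), against 9.59% of 32851 RefSeq windows of the same length. CAGAC was present in 16 of the 39 (41%), against 42.2% of all windows. The windows of Bmpr2, Grem1, Smad9, Tgfbr1, Ltbp4, Smad5, Bmpr1a and Chrd also held GGCGCC. The matches describe letters in these windows and were not related to binding. The base composition of the windows was not matched. Some windows of Ltbp4, Smad5 and Bmpr1b overlapped another window of the same gene, so the 39 are not separate promoters and 1 match may be counted in 2 windows.

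In WT cells, levels were compared between genes per transcript length, in TPM, the counterpart of CPM that corrects for gene length. Smad5, a BMP-activated Smad, was highest of the 42 at 146 ± 14.4 TPM (SD, n = 3), with 4.89% of genes with reads above it. Id3 followed at 129 ± 41.3 TPM and Id2 at 99.7 ± 3.39 TPM. Id3 ran from 88.9 to 171 TPM over the WT libraries and overlapped both of the others, while Smad5 (133 to 161 TPM) lay above Id2 (95.8 to 102 TPM) in every library. Smad2 was at 69.6 ± 6.44 TPM, and Bmp7, the leading ligand, at 62 ± 11.1 TPM. Bmpr1a, a type I BMP receptor, led the receptors with 51.5 ± 11.9 TPM. Among the TGF-beta ligands only Tgfb2 had more than a few TPM, with 26.7 ± 3.32 TPM, against 4.69 ± 1.4 TPM for Tgfb3 and 0.809 ± 0.499 TPM for Tgfb1. The type II TGF-beta receptor Tgfbr2 stood at 2.72 ± 0.262 TPM, below its type I partner Tgfbr1 at 12.9 ± 1.72 TPM.

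**Figure D1:**
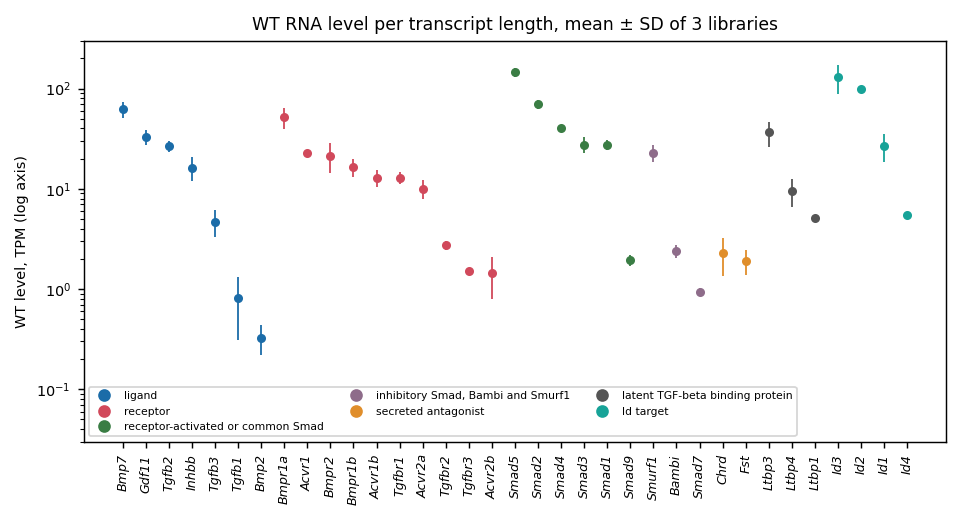
WT RNA level of the 35 genes that passed the count filter, in TPM on a log axis, with points and bars giving the mean ± SD of 3 WT libraries and colours giving the role. Smad5 (146 TPM), Id3 (129 TPM) and Id2 (99.7 TPM) stood at the top, and Bmp2 (0.328 TPM) at the bottom.

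Of the 42 genes, 35 passed the count filter and were tested for RNA. Of these 1 (Ltbp1), or 2.86% of the 35, was called at an adjusted p under 0.05, and it was higher in KO. Over all genes tested, 3.43% were called, so the share called among the 35 was near the background. An unadjusted p under 0.05 was reached by 9 of the 35 (25.7%, 3 higher and 6 lower in KO), against 13.7% of all genes. The groups did not overlap for 10 of the 35 (28.6%, 4 higher and 6 lower), against the 19.0% of all genes given above. The 42 genes were chosen with earlier results of these data known, so shares among them are descriptive, here and below. The log2 fold changes were positive for 18 and negative for 17, with a median of 0.00, beside a median of 0.01 over all genes tested. In these bulk samples, fewer cells of a type and less RNA per cell cannot be told apart.

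**Figure D2:**
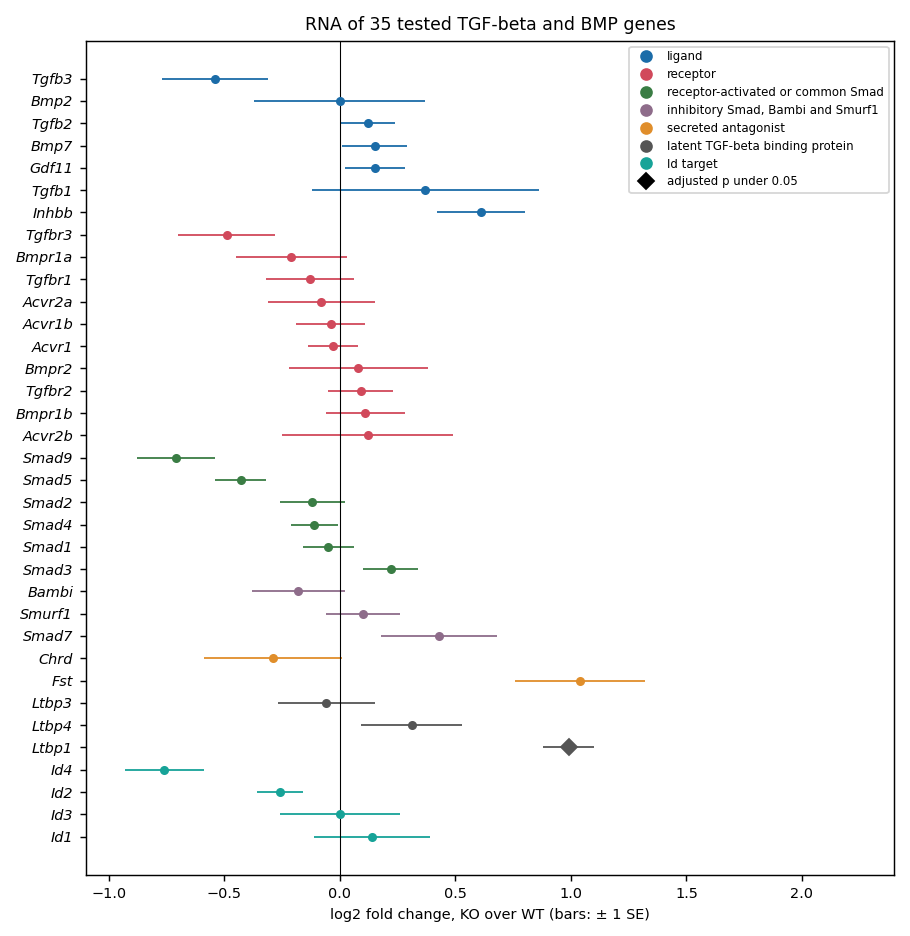
RNA log2 fold change, KO over WT, of the 35 tested genes by role, with bars giving ± 1 SE from edgeR and the called gene marked. Ltbp1 (0.99) was the only gene called, while Fst (1.04) lay as far out with a wider error and Id4 (-0.76) and Smad9 (-0.71) were the lowest.

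Ltbp1, a latent TGF-beta binding protein that anchors the latent complex in the matrix, rose in KO by 1.99-fold. It had 14.6, 15 and 13.5 CPM in the WT libraries and 27.7, 27.9 and 29.9 CPM in the KO libraries. Every KO library lay above every WT library, and the gap was many times the spread within either genotype. The log2 fold change was 0.99 ± 0.11 (SE; edgeR, adjusted p = 0.00385). It was 0.93 within the low mitochondrial class (1 WT and 2 KO libraries) and 1.07 within the high class (2 WT and 1 KO). The summed level of 8 endothelial and pericyte markers was 23.3 to 31.4 CPM in WT and 55.2 to 62.8 CPM in KO. Nearly all of that sum was Flt1, with 27.8, 21.3 and 28.6 CPM in WT and 58.3, 51.6 and 59.1 CPM in KO, the only one called (higher in KO) of the 3 tested. The other 7 had at most 2.08 CPM each in any library. Kdr (0.76 to 1 CPM in WT, 1.5 to 1.78 CPM in KO) and Rgs5 (0.591 to 1.12 CPM in WT, 1.62 to 2.08 CPM in KO) also lay higher in KO, without overlap. Pecam1 lay lower, at 0.247 to 0.38 CPM in WT and 0.117 to 0.208 CPM in KO. Tek and Kcnj8 overlapped, and Cdh5 and Cldn5 were at 0 in every library. The 9 fibroblast and meningeal markers summed to 30.5 to 36.2 CPM in WT and 17.9 to 20.9 CPM in KO, and of 5 tested Twist1 was called higher and Foxc1 and Acta2 lower. Foxc1 (20.1 to 27.8 CPM in WT, 12.4 to 14.8 CPM in KO) and Acta2 (7.24 to 8.91 CPM in WT, 3.49 to 4.55 CPM in KO) made up most of that sum. The other 7 had at most 0.914 CPM each, and none of the 9 was at 0 in every library. The part of these marker changes in the Ltbp1 result was not tested.

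The other latent TGF-beta binding proteins did not pass the test. Ltbp3, which also binds latent TGF-beta and was the most abundant of the 3 per length (36.5 ± 10.2 TPM in WT), had 104, 63.4 and 85.4 CPM in WT and 88, 93.2 and 61.3 CPM in KO (log2 fold change -0.06 ± 0.21, SE). Ltbp4 had 29.8, 17.1 and 21.9 CPM in WT and 29.9, 32.9 and 22.7 CPM in KO (log2 fold change 0.31 ± 0.22). For both genes the genotypes overlapped, and the libraries with a low mitochondrial share lay above those with a high share.

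Among the Id genes, Id4 had the smallest p. It had 8.69, 10.8 and 8.83 CPM in WT and 4.79, 5.4 and 6.46 CPM in KO. All KO libraries lay below all WT libraries, with a log2 fold change of -0.76 ± 0.17 (SE; edgeR, adjusted p = 0.0589), which missed the threshold. Id2 had 42.4, 43.9 and 42.1 CPM in WT and 35, 35.1 and 37.2 CPM in KO, again with no overlap, and a log2 fold change of -0.26 ± 0.10 (adjusted p = 0.289). Id1 and Id3 followed the library class and not the genotype. Id1 had 18.4, 11.6 and 11.7 CPM in WT and 17.1, 18.1 and 10.9 CPM in KO, with WT 1, KO 1 and KO 2 high and the others low. Id3 had 95.8, 54.3 and 69 CPM in WT and 81.4, 88.4 and 49.5 CPM in KO, with the same libraries high. Their log2 fold changes were 0.14 ± 0.25 and 0.00 ± 0.26 (adjusted p = 0.91 and 0.999). With the class as a covariate these 2 became -0.08 and -0.24, neither of them called. The summed level of 8 astrocyte markers, a lineage that BMP signals favour, ran from 1821 to 2177 CPM in WT and from 1558 to 1741 CPM in KO. All 8 were tested, and S100b, Sparcl1 and Agt were called lower, with none of the 8 at 0. The list did not move together: Gfap had 77.9 to 106 CPM in WT and 105 to 126 CPM in KO, and Gja1 225 to 273 CPM in WT and 240 to 262 CPM in KO. The part of these markers in the values of Id2 and Id4 was not tested.

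The Smads that carry BMP signals gave 2 of the lower values. Smad5 had 266, 312 and 318 CPM in WT and 211, 212 and 243 CPM in KO, without overlap (log2 fold change -0.43 ± 0.11, SE; adjusted p = 0.1). Smad9, a BMP-activated Smad of low abundance (1.95 ± 0.238 TPM in WT), had 4.64, 4.36 and 5.01 CPM in WT and 3.11, 2.7 and 2.76 CPM in KO (log2 fold change -0.71 ± 0.17; adjusted p = 0.0687). Both genes lay lower in every KO library than in any WT library, and neither passed the threshold. Smad1, which shares their role, overlapped between the genotypes, from 35.4 to 39.8 CPM in WT and from 35.1 to 37.6 CPM in KO (log2 fold change -0.05 ± 0.11).

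Smad2, the more abundant of the TGF-beta and activin Smads per length, had 65.5, 84.8 and 75.8 CPM in WT and 63.4, 66.5 and 78.7 CPM in KO, overlapping between the genotypes. Smad3 was higher in each KO library (74.3, 73.9 and 71.3 CPM) than in any WT library (68.3, 53.3 and 66.5 CPM), with a log2 fold change of 0.22 ± 0.12 (adjusted p = 0.538). The common Smad4 was lower in each KO library, at 54.9 to 57.1 CPM against 59 to 61.6 CPM in WT, with a log2 fold change of -0.11 ± 0.10 (adjusted p = 0.8). For these last 2 genes the groups were apart but neither passed the threshold. Of the 6 Smads of this role 4 did not overlap between genotypes, 1 of them higher and 3 lower, beside 19.0% of all genes, and none of the 6 was called.

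The ligands were led by Bmp7 and Gdf11, a ligand of the activin branch. Bmp7 had 116, 88.1 and 101 CPM in WT and 117, 123 and 98.2 CPM in KO, and Gdf11 had 62.2, 51.7 and 65.2 CPM in WT and 72.3, 64.3 and 61.8 CPM in KO. Each had a log2 fold change of 0.15, with an SE of 0.14 for Bmp7 and 0.13 for Gdf11, and overlapped between the genotypes. Inhbb, which encodes the beta B subunit of activins and inhibins, had 37.7, 23.9 and 30.9 CPM in WT and 50.1, 52.5 and 38.4 CPM in KO. The groups were apart by little (KO 3 against WT 1), and the log2 fold change of 0.61 ± 0.19 had an adjusted p of 0.166. Tgfb3 had 9.03, 5.34 and 6.79 CPM in WT and 5.83, 4.57 and 4.16 CPM in KO (log2 fold change -0.54 ± 0.23; adjusted p = 0.358), with KO 1 above WT 2. The remaining tested ligands, Tgfb1, Tgfb2 and Bmp2, overlapped, with log2 fold changes of 0.37, 0.12 and 0.00.

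Ligands and antagonists made up most of the 7 genes that fell under the filter, given here as rounded counts. Counts listed by library run from WT 1, 2 and 3 to KO 1, 2 and 3. Inhba, the beta A subunit of activin, had 14, 11 and 10 counts in WT and 1, 6 and 3 counts in KO. Its groups did not overlap, and in a fit without the count filter its log2 fold change was -1.72 ± 0.62 (SE; edgeR, adjusted p = 0.224). Nog, the BMP antagonist noggin, had 16, 4 and 8 counts in WT and 4, 12 and 4 counts in KO. Bmp6 had 10, 10 and 4 counts in WT and 9, 4 and 3 counts in KO. Bmp4, Bmp5, Grem1 (a BMP antagonist) and Smad6 (an inhibitory Smad) had at most 5 counts in any library. Bmp4 had 1 count in WT 2 and 0 elsewhere. A count of 0 allows up to 3 counts, which is 0.116 to 0.148 CPM in these libraries and covers counting error only.

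Fst and Chrd, the tested secreted antagonists, differed in their values. Fst (follistatin), which binds activins, had 1.31, 2.26 and 1.27 CPM in WT and 2.82, 3.16 and 3.97 CPM in KO. Every KO library lay above every WT library, with a log2 fold change of 1.04 ± 0.28 (SE; edgeR, adjusted p = 0.106). Chrd (chordin), which binds BMPs, had 4.05, 1.81 and 3.51 CPM in WT and 2.27, 2.78 and 2.61 CPM in KO (log2 fold change -0.29 ± 0.30), and all its KO values lay inside the WT range. Among the cell-bound inhibitors, Smurf1, a ubiquitin ligase that targets Smads, had 60.1, 46.5 and 59.5 CPM in WT and 65.3, 64.4 and 48.5 CPM in KO. Bambi, a decoy receptor in the membrane, had 5.95, 6.04 and 4.4 CPM in WT and 3.95, 5.49 and 5.02 CPM in KO. Smad7, an inhibitory Smad, had 1.69, 1.81 and 1.93 CPM in WT and 3.21, 2.33 and 1.83 CPM in KO. These 3 overlapped between genotypes, with log2 fold changes of 0.10 ± 0.16, -0.18 ± 0.20 and 0.43 ± 0.25.

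**Figure D3:**
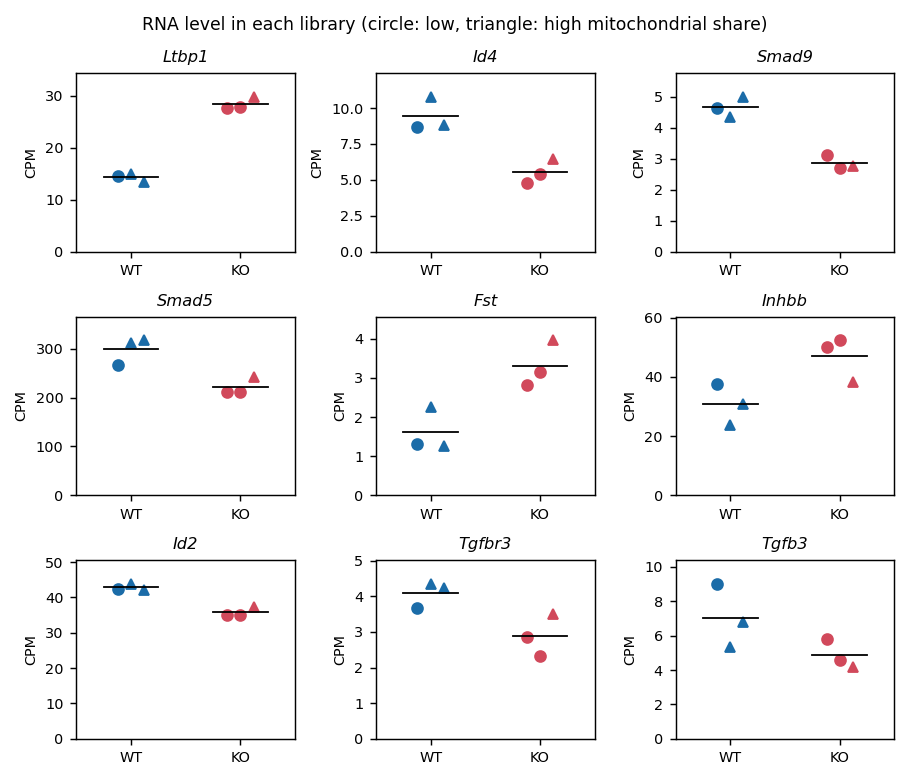
RNA level (CPM) in each of the 6 libraries for the 9 genes with an unadjusted p under 0.05, with lines at the group means, circles for libraries with a low mitochondrial share and triangles for those with a high share. Ltbp1 ran from 13.5 to 15 CPM in WT and from 27.7 to 29.9 CPM in KO, and only Tgfb3 overlapped between the genotypes.

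No receptor passed the test, and several followed the library class. Bmpr1a had 99.1, 173 and 143 CPM in WT and 110, 94.1 and 155 CPM in KO, with WT 2, WT 3 and KO 3 the highest. Bmpr2, the type II BMP receptor, had 78, 170 and 127 CPM in WT and 111, 106 and 180 CPM in KO, with the same libraries highest. The spread within a genotype was thus larger than the difference between genotypes (log2 fold changes of -0.21 ± 0.24 and 0.08 ± 0.30). Acvr1, a type I receptor used by BMPs and the second of the receptors by level per length, had 23, 25.1 and 25.6 CPM in WT and 23.3, 23.2 and 25.5 CPM in KO (log2 fold change -0.03 ± 0.11). Tgfbr3 (betaglycan), a co-receptor that presents TGF-beta2 to the signalling receptors, had 3.67, 4.36 and 4.24 CPM in WT and 2.87, 2.33 and 3.5 CPM in KO. Its groups were apart, with KO 3 just under WT 1, and the log2 fold change was -0.49 ± 0.21 (edgeR, adjusted p = 0.336). The other 6 receptors had log2 fold changes from -0.13 (Tgfbr1) to 0.12 (Acvr2b).

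The 2 library classes did not overlap for 14 of the 35 genes (40%), near the 41.8% of all genes given above. Higher with a high mitochondrial share were Bmpr1a, Bmpr2, Acvr1, Acvr2a, Tgfbr1 and Smad2, that is 5 receptors and a Smad. Higher with a low share were Bmp7, Tgfb1, Acvr2b, Smurf1, Ltbp3, Ltbp4, Id1 and Id3. The class was read from the same counts and is not among the labels, and it is uneven between genotypes. With the class as a covariate, 8 of the 35 (22.9%) were called, against 11.1% of all genes. These were Ltbp1, Fst, Inhbb and Bmpr2, higher in KO, and Id4, Smad9, Smad5 and Tgfb3, lower in KO. Their adjusted p (edgeR) ran from 4.31e-05 for Ltbp1 to 0.0487 for Bmpr2, whose log2 fold change moved from 0.08 to 0.38. Within the low and then the high class the log2 fold changes were 1.19 and 1.17 (Fst), 0.44 and 0.49 (Inhbb), and 0.47 and 0.28 (Bmpr2). They were -0.77 and -0.60 (Id4), -0.67 and -0.76 (Smad9), -0.33 and -0.37 (Smad5), and -0.80 and -0.54 (Tgfb3). Each class holds 1 library of 1 genotype.

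A wider list of 90 genes of the same pathways, all in the table, had 57 tested, of which 4 (7.02%) were called, beside the 3.43% of all genes. This list was also chosen with earlier results of these data known, so its share is descriptive too. Of these 3 were higher and 1 lower in KO, and the median log2 fold change of the 57 was -0.01. Bmper, a secreted BMP-binding modulator, had 12.8, 13.6 and 15.1 CPM in WT and 29.5, 27.5 and 32.5 CPM in KO (log2 fold change 1.11 ± 0.13, SE; edgeR, adjusted p = 0.00385). Pmepa1, a TGF-beta target that dampens Smad signalling, had 4.68, 4.81 and 4.63 CPM in WT and 9.69, 10.5 and 8.91 CPM in KO (1.04 ± 0.14, adjusted p = 0.00841). Hey1, a BMP and Notch target, had 26.5, 22.6 and 25.1 CPM in WT and 41.2, 37.5 and 37.7 CPM in KO (0.65 ± 0.11, adjusted p = 0.0215). Bmp3, a ligand that opposes other BMPs, fell from 3.71, 3.08 and 4.4 CPM in WT to 0.89, 0.914 and 1.28 CPM in KO (-1.85 ± 0.25, adjusted p = 0.0073). None of the 4 overlapped between genotypes. The next by p were Fbn2 (0.59, adjusted p = 0.0734), Cdkn2b (0.61, adjusted p = 0.129) and Lrrc32 (-0.55, adjusted p = 0.16).

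Leaving out a library ended the call of 3 of these 4 genes in some fits, in which the log2 fold changes stayed near those above. Bmp3 had an adjusted p of 0.0526 without WT 3 (log2 fold change -1.72). Pmepa1 had 0.0745 without WT 3, 0.0546 without KO 1 and 0.053 without KO 2 (log2 fold changes of 0.98 to 1.03). Hey1 had 0.0667 without WT 2, 0.135 without WT 3, 0.141 without KO 1 and 0.0894 without KO 2 (0.58 to 0.67). With a library left out, calls over all genes fell from 525 to between 145 and 506. Hey1 also lost its call with the replicate number as a block (adjusted p = 0.0639) and when a change of at least 1.2-fold was tested (glmTreat, adjusted p = 0.0746). Bmper, like Ltbp1, was called with any single library left out.

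In CUT&Tag, the deposited regions assigned to the 42 genes numbered 145 of 69418 (0.209%), over 36 genes. Bmp4, Bmp7, Tgfb1, Tgfb3, Acvr2a and Chrd had none, and Bmpr1b had the most, with 17. By the authors' annotation 39 of the 145 lay in promoters (26.9%, against 30.5% of all regions), 64 in introns, 30 between genes, and 4 each in exons, 3′ UTRs and downstream. A region lay within 1 kb of an annotated start of 19 genes. The regions were shallow: a region in a library had 3 to 165 reads, with a median of 37, beside 36 for all regions. A peak was called by the authors in 1 library alone for 96 of the 145 (66.2%, against 63.5% of all regions) and in all 4 libraries for 9 (6.21%, against 10% of all regions). Of the 145, 44 and 37 had a peak in WT 1 and WT 2, and 82 and 67 in KO 1 and KO 2. Of all regions, 20867 and 22821 had a peak in WT 1 and WT 2, and 40699 and 30806 in KO 1 and KO 2.

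None of the 145 regions was called between KO and WT (edgeR, smallest adjusted p = 0.703), against 0.00722% of all 69209 regions tested, and DESeq2 called none either. An unadjusted p under 0.05 was reached by 8 (5.52%, 3 higher and 5 lower in KO), against 5.35% of all regions, a share near the background. The log2 fold changes ran from -1.16 to 1.50, with 71 positive and 74 negative. With the reads of all regions summed per gene, 0 of 36 genes were called (smallest adjusted p = 0.517), against 0.146% of 27448 genes. An unadjusted p under 0.05 was reached by 4 of 36 (11.1%), against 6.78% of all genes. With no spike-in used here, a change common to all regions cannot be measured.

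**Figure D4:**
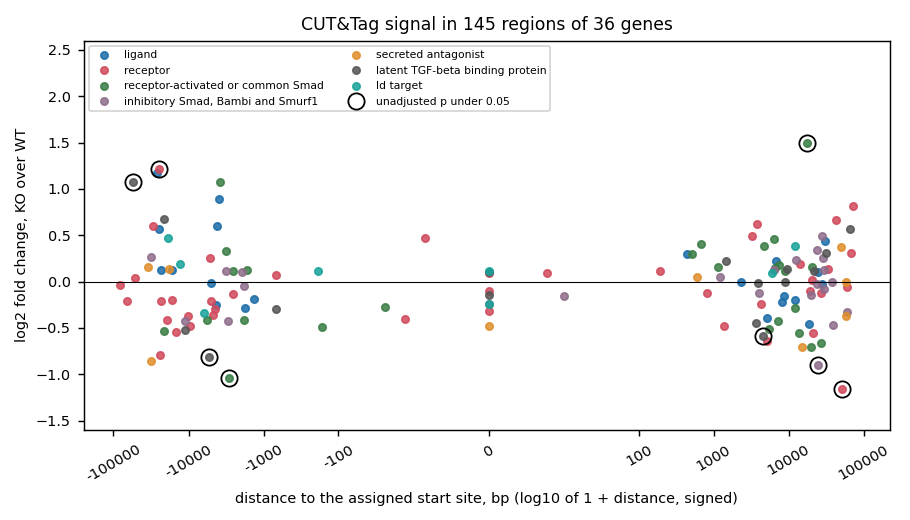
CUT&Tag log2 fold change, KO over WT, of the 145 regions against their distance to the assigned start site in bp (signed log axis), coloured by role and ringed where the unadjusted p was under 0.05. The values ran from -1.16 to 1.50 on both sides of the start, and the 8 ringed regions (3 higher, 5 lower) all lay more than 1 kb from it.

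The regions at the Id starts had similar reads in both genotypes. At Id2 the region chr12:25146050-25146395 (GRCm39, as are all regions below), which covers the start, had 49 and 50 reads in WT and 48 and 56 reads in KO, or 15.8 and 17.3 against 11.7 and 16.6 CPM (log2 fold change -0.24 ± 0.30, SE). At Id3 the region chr4:135870949-135871267, also over the start, had 80 and 48 reads in WT and 90 and 82 reads in KO (0.11 ± 0.25). At Id4 the region chr13:48414166-48414517, 187 bp upstream, had 56 and 38 reads in WT and 68 and 58 reads in KO (0.11 ± 0.29), and the authors called a peak in all 4 libraries. Each of these groups overlapped on the CPM scale. For Id1 the nearest region, chr2:152571629-152572038, lay 6133 bp upstream between genes and had 86 and 66 reads in WT and 76 and 73 reads in KO (-0.34 ± 0.24).

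Ltbp1, the gene called by RNA, had 9 regions, none at an annotated start. The nearest to any such start, chr17:75600626-75600833 in an exon, had 24 and 17 reads in WT and 17 and 20 reads in KO (log2 fold change -0.45 ± 0.60). That start, 3655 bp away, lay inside the gene and was not 1 of the 2 shown above. An intronic region, chr17:75542478-75542849, had 11 and 16 reads in WT and 28 and 42 reads in KO (1.07 ± 0.52, edgeR, adjusted p = 0.932). The authors called a peak there in 1 KO library and 0 WT libraries, so a high KO value is partly built in. With a library left out this value ran from 0.59 (without KO 2) to 1.45 (without KO 1). Summed over the 9 regions, Ltbp1 had 57.7 and 51.8 CPM in WT and 59.4 and 71.6 CPM in KO (0.25 ± 0.16, edgeR, adjusted p = 0.793). For each of the 9 a peak was called in 1 library, in most cases a KO library.

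The largest positive value was in the first intron of Smad9, at chr3:54680292-54680609, with 13 and 11 reads in WT and 45 and 40 reads in KO (log2 fold change 1.50 ± 0.50; unadjusted p = 0.00252, adjusted p = 0.703). Both KO libraries lay above both WT libraries there, and Smad9 RNA was lower in KO. The authors called a peak there in 2 KO libraries and 0 WT libraries. The region thus entered the merged set through KO, and a high KO value is partly built in. In the authors' deposited table the same region had a log2 fold change of 1.51, a p of 0.0371 and a q of 1. By p, the other positive regions named here were in introns of Bmpr1b (chr3:141662022-141662221; 16 and 5 reads in WT, 42 and 20 in KO; 1.22 ± 0.62) and Smad1 (chr8:80087098-80087297; 9 and 15 reads in WT, 21 and 41 in KO; 1.08 ± 0.58), and in the 3′ UTR of Smad5 (chr13:56887114-56887627; 53 and 67 reads in WT, 127 and 81 in KO; 0.46 ± 0.24). Few reads lay behind the WT values of the intronic regions. For the Bmpr1b and Smad1 regions the authors called a peak in 1 KO library and 0 WT libraries, so the same limit holds. With a library left out, the log2 fold change ran from 0.65 (without WT 2) to 2.21 (without WT 1) for the Bmpr1b region, and from 0.34 to 1.58 for the Smad1 region, against 1.43 to 1.58 for the Smad9 region.

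Among the negative values, again taken by p, a region of Smad3, chr9:63653415-63653761, had 63 and 40 reads in WT and 21 and 40 reads in KO. In CPM these were 20.4 and 13.8 against 5.12 and 11.9 (log2 fold change -1.04 ± 0.35, edgeR, unadjusted p = 0.00293, adjusted p = 0.721). The region lay 2868 bp upstream of 1 of several Smad3 starts in the authors' annotation, so it may lie inside the gene. An intronic region of Tgfbr2, chr9:115952165-115952375, had 23 and 45 reads in WT and 20 and 18 reads in KO (-1.16 ± 0.47). An intronic region of Smurf1, chr5:144877924-144878125, had 46 and 38 reads in WT and 30 and 26 reads in KO (-0.90 ± 0.39), with a p of 0.00269 and a q of 1 in the authors' deposited table. In Ltbp4 an intronic region, chr7:27015445-27015709, had 46 and 59 reads in WT and 54 and 22 reads in KO (-0.81 ± 0.33), and a downstream region, chr7:27001428-27001812, had 76 and 38 reads in WT and 61 and 34 reads in KO (-0.59 ± 0.30). Of these 5 regions the last overlapped between genotypes in CPM. For each of them the authors called a peak in 1 WT library and 0 KO libraries. Each thus entered the merged set through WT, and a lower KO value is partly built in. With a library left out they ran from -1.74 to -0.53 (Smad3), -1.6 to -0.54 (Tgfbr2), -0.98 to -0.80 (Smurf1), -1.43 to -0.42 (Ltbp4 intron) and -0.96 to -0.06 (Ltbp4 downstream).

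Summed per gene, Smad3 had 101 and 98.8 CPM in WT and 81.9 and 75.2 CPM in KO over 7 regions (log2 fold change -0.35 ± 0.13, SE; adjusted p = 0.517). Smad2 had 54.1 and 58.4 CPM in WT and 44.8 and 39.1 CPM in KO over 3 regions (-0.42 ± 0.17, adjusted p = 0.633). Both sums lay lower in the KO libraries, without passing the threshold. Most of the Smad3 regions had a peak called in a WT library alone, so a lower KO sum is partly built in. Tgfbr2 had 26.6 and 33.9 CPM in WT and 24.8 and 14.6 CPM in KO (-0.60 ± 0.24, adjusted p = 0.592). Bmp2 had 9.4 and 4.15 CPM in WT and 16.6 and 8.66 CPM in KO (0.90 ± 0.42, edgeR, adjusted p = 0.704), with overlap. Its regions had a peak called in KO alone. These 4 genes are the ones of the 36 with an unadjusted p under 0.05 (edgeR).

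For the 30 genes measured in both assays, the CUT&Tag and RNA log2 fold changes had the same sign in 11. Across these genes, which are not independent replicates, Pearson's r was -0.22 and Spearman's rho -0.29, as a description. Smad5 and Smad9 had lower RNA and higher CUT&Tag values in KO, and Smad3 and Fst the reverse, with CUT&Tag values of 0.32 ± 0.18, 0.48 ± 0.26, -0.35 ± 0.13 and -0.23 ± 0.20. Ltbp1 had positive values in both, though most of its regions had a peak called in a KO library alone. A region entered the merged set through a peak in at least 1 library. The CUT&Tag signs thus depend in part on the genotype in which peaks were called, and how far was not tested.

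**Figure D5:**
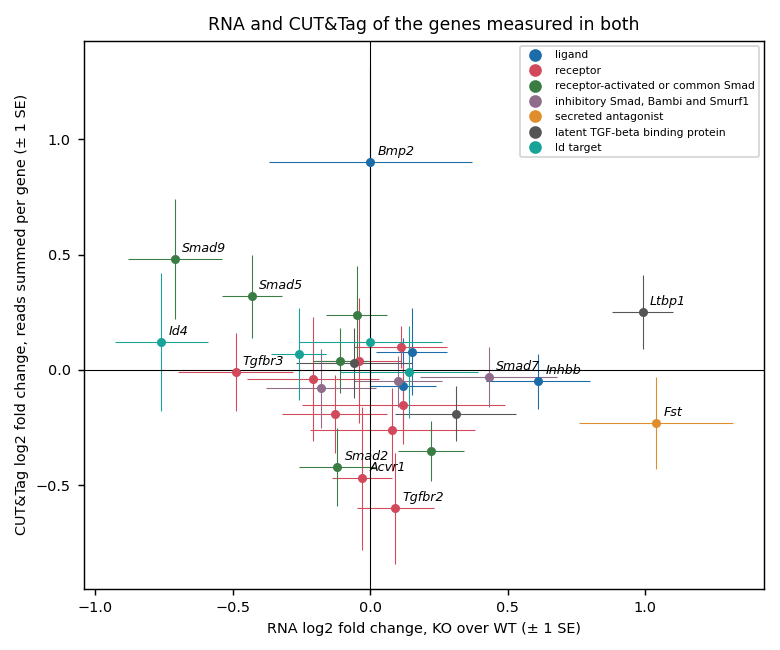
CUT&Tag log2 fold change (reads summed per gene) against RNA log2 fold change, KO over WT, for the 30 genes measured in both assays, with bars giving ± 1 SE and colours the role. Ltbp1 (0.99 for RNA, 0.25 for CUT&Tag) lay above 0 on both axes, and Smad9 (-0.71 and 0.48) and Fst (1.04 and -0.23) in opposite corners.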

How the data were processed

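Titles and genotype labels gave each library's group and number. HISAT2, StringTie and GRCm39 are named, without versions, in the submitters' processing notes. The sources used here give no counting tool, strand setting, peak caller or antibody. The RNA table holds the authors' deposited expected counts per Ensembl gene, rounded here to whole numbers. The CUT&Tag table holds the authors' deposited read counts for regions merged over the 4 libraries, with RPM, log2 fold changes, p-values and q-values that are the authors' own, whose test no source used here names. The gene assigned to a region, its annotation and its distance to a start are also the authors'.

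Both tables were fitted whole with edgeR 4.0.16 in R 4.3.3 (TMM scaling, filterByExpr with a minimum count of 10, robust quasi-likelihood test, KO against WT, Benjamini-Hochberg adjustment, threshold 0.05). The filter kept 15298 genes and 69209 regions. Reads were also summed over the regions of a gene. CPM use TMM-scaled totals (in CUT&Tag, totals of region reads), and TPM were computed from the counts and the deposited gene lengths. An SE is the log2 fold change over the square root of F. With counts this deep in RNA, counting error is small for all but the lowest genes; for CUT&Tag regions, with a median of 37 reads, it is not. The code was tested on simulated data.

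The 42 genes, the list of 90 further pathway genes and the marker lists were chosen with earlier results of these data known. Named with every library's value were the called genes and those with an unadjusted p under 0.05. So were the 2 of each role with the highest WT TPM and the Id genes. Bmpr2, Smad3, Smad7, Inhba, Nog, Bmp6 and Bmp4 were outside these rules and were added after their values were seen. Smad1, Smad4 and the other genes under the filter, also added then, were given by range or largest count. Regions were named if called, if nearest an annotated start of a called gene or an Id gene, or among the 5 smallest p in each direction. Of the further genes, those called and the next 3 by p were named. Alternatives were other scalings, filters and dispersions, DESeq2 1.42.0, glmTreat, a replicate block, the library class as covariate, summing only regions near the start and leaving out each library.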

Additional observations from a re-analysis of the deposited data

How the results depend on the processing

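Ltbp1 was called in every RNA fit run, with a largest adjusted p of 0.0422 (without WT 3). The number of the 42 genes called was 1 in the main fit, 2 without a count filter (Ltbp1 and Id4), 5 with DESeq2 (also Smad5, Smad9 and Fst), 8 with the library class as covariate, and 1 to 2 with a library left out; all genes called numbered 525, 649, 909, 1695, and 145 to 506. Of the 90 further genes, 4 were called in the main fit, 12 with the class as covariate and 1 to 5 with a library left out. No CUT&Tag region or gene of the 42 was called in any setting run.

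Replicate numbers did not pair the RNA libraries (correlations of deviations 0.6093, -0.5175 and 0.312 for the same number) or the CUT&Tag libraries (0.0156). With the replicate block, 1 of the 42 genes was called for RNA (Ltbp1, adjusted p = 0.0294), 3 of the 90 further genes (Hey1 had an adjusted p of 0.0639) and 229 of all genes, with 0 CUT&Tag regions and 0 CUT&Tag genes of the 42.

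Of 523 alternative values over the 35 tested genes, 472 kept direction and side of the threshold, 13 (7 genes) passed the threshold newly and 38 (14 genes) changed sign. Of the last, the log2 fold changes with the class as covariate were 0.0052 (Bmpr1a), 0.01 (Acvr1), 0.12 (Acvr2a), -0.15 (Acvr2b), 0.0058 (Tgfbr1), -0.0082 (Smurf1), -0.08 (Id1) and -0.24 (Id3). Bmp2 had -0.0061 with RLE size factors, -0.0078 without a count filter and -0.0082 with DESeq2. Id3 had -0.0074 with RLE size factors, -0.01 without a count filter, -0.0032 with a CPM filter, -0.0071 with the replicate block and -0.0083 with DESeq2. With a library left out the ranges were -0.23 to 0.19 (Bmp2), -0.05 to 0.95 (Tgfb1), -0.05 to 0.24 (Bmpr1b), -0.22 to 0.36 (Bmpr2), -0.17 to 0.03 (Acvr1b), -0.32 to 0.07 (Acvr2a), -0.09 to 0.51 (Acvr2b), -0.02 to 0.22 (Smurf1), -0.24 to 0.12 (Ltbp3) and -0.18 to 0.24 (Id3). Among 15 CUT&Tag regions, 3 changed sign with a library left out: those at Id2 (-0.50 to 0.0024), Id3 (-0.16 to 0.48) and Id4 (-0.10 to 0.36). The cause was not tested. A CUT&Tag fit without a library has 1 library of that genotype, taken to vary as much as the other genotype's pair.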
